A study of Homo sapiens with 4 samples.

Results

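DEAD and DEAH box helicases are enzymes that bind RNA and use ATP to unwind it, to strip proteins from it or to clamp onto it. They share a core of 2 RecA-like domains with conserved motifs, and differ more in the arms before and after the core, which in some members are charged or arginine-rich. In human cells they act at nearly every step in the life of an RNA, from splicing and ribosome assembly to export, translation and decay. The question here was how a dipeptide repeat protein made from the C9orf72 repeat expansion, poly(PR), contacted the transcripts that encode these enzymes. Members were all protein-coding genes of GENCODE 44 on chromosomes 1 to 22 and X whose symbol starts with DDX or DHX and a digit. This gave 53 genes, 37 DDX and 16 DHX, of 19970 protein-coding genes.

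The 4 libraries came from HEK293T cells, a human embryonic kidney cell line, that were transiently transfected with PR100-FLAG, a plasmid coding for poly(PR) with a triple FLAG tag at its end. Expression was induced with 150 ng/ml doxycycline for 24 h before crosslinking with UV light at 160 mJ/cm2 and iiCLIP, which locates the RNA nucleotide crosslinked to the immunoprecipitated protein. SDS-PAGE was used to purify the complexes of replicates 1 to 3, and bead immunoprecipitation without a gel those of replicate 4. All 4 libraries belong to 1 condition with overexpressed protein, and control and input libraries were not analysed here, so more crosslinking per RNA and more RNA cannot be told apart. The labels do not say whether the replicates came from separate cultures, and the SDs given below may therefore be technical.

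A count of 1 is 1 unique cDNA that ends at a crosslinked position, called an event below. The libraries held 334057, 604816, 125694 and 179636 events, 1244203 in all. Replicate 3 stood apart from the others. Its 419 events in the helicase genes lay on 106 positions, or 3.95 events per position, and 69.7% of them lay on positions with at least 5 events. In replicates 1, 2 and 4 these shares were 0.784%, 4.12% and 0.511%. Other protein-coding genes had 2.91 events per position in replicate 3 and between 1.054 and 1.58 in the others. The cell markers NEFM and NEFL, neurofilament genes known to be expressed in HEK293 cells, had 1426 and 165 events and VIM 105. PAX2 and LHX1, of the embryonic kidney, had 21 and 20. Of the markers of other cells, PTPRC had 10, GFAP 9, ALB and MYH7 2 each and KRT5 0.

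The sites with the most cDNAs are shown first. The authors joined significant positions of the pooled libraries into clusters, and 8 clusters in 5 helicase genes held at least 20 cDNAs. The lines give 30 nt of the transcript strand of GRCh38, written as DNA from 5′ to 3′, starting 5 nt before the summit (the position with the most cDNAs of the cluster) and ending 24 nt after it. Capitals mark GANGA, a motif that the study associated with poly(PR), which here stands for GAAGA and its variants with G (GAGGA) or C (GACGA) in the middle. The study found GAAGA by a motif search at the crosslinking sites of its PR100 data. The clusters of DDX10 and DDX46 are smaller and were added after their values were seen, to show windows rich in the motif.
DDX17, exon 13, coding, 44 cDNAs, chr22:38486294-38486323, minus strand: gctatcgggatcgtagtgaaaccgatagag
DDX17, exon 12, coding, 25 cDNAs, chr22:38488024-38488053, minus strand: caccgtattggccgaacagcccgtagcacc
DDX5, exon 12, coding, 24 cDNAs, chr17:64500613-64500642, minus strand: ataaagcaagtgagcgaccttatctctgtg
DDX21, exon 6, coding, 33 cDNAs, chr10:68967160-68967189, plus strand: tgctgatcaagtgGAAGAgattttaagtgt
DDX39B, exon 7, coding, 30 cDNAs, chr6:31532818-31532847, minus strand: tgaaactgaaggacaacgaGAAGAaccgga
DDX39B, intron 5, snoRNA SNORD117, 32 cDNAs, chr6:31536372-31536401, minus strand: tcttatctatcacccatgactgatggctct
DDX39B, intron 1, snoRNA SNORD84, 24 cDNAs, chr6:31541099-31541128, minus strand: cctcatctatcacccttgactgatggctgc
DHX30, intron 4 of the canonical transcript and coding in another, 20 cDNAs, chr3:47825048-47825077, plus strand: cgctaggagactcatggcgctggccgccgg
DDX10, exon 13, coding, 18 cDNAs, chr11:108723220-108723249, plus strand: aatgatactggtaatGAAGAacagGAAGAa
DDX46, exon 6, coding, 15 cDNAs, chr5:134777575-134777604, plus strand: tGACGAAGAtgatcctgcagaagctgaaaa

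Of the 8 largest clusters, 2, those of DDX21 and of DDX39B exon 7, had a GANGA motif in a window of 36 nt that starts 5 nt before the summit. Over all coding positions of the members, 21.2% had a motif in the same window. The DDX10 window held 4 motifs over those 36 nt, overlaps included, and the DDX46 window 2. The windows in SNORD117 and SNORD84, box C/D snoRNAs processed out of DDX39B introns, held none.

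The 53 genes held 5030 events, with 1275, 2357, 419 and 979 in replicates 1 to 4. Scaled to each library this was 3817, 3897, 3333 and 5450 counts scaled to library size (CPM, events per 1000000 events of the library), with a mean of 4124 ± 918 (SD, n = 4). The beads library was highest and replicate 3 lowest. At least 200 pooled events, the event minimum of the study, were found in 5 members, or 9.43%, against 3.51% of all protein-coding genes. For a bound gene the study also required little binding in its control samples, which was not applied here. At least 100 events were found in 15 members, or 28.3%, against 12% of protein-coding genes. The 5 members held 34.0% of all member events. The median member had 71 events and the median protein-coding gene 15. Events in all 4 libraries were present in 40 members, and 13 had none in replicate 3, the library with the fewest events. The same counts over all protein-coding genes are not given here, so these describe detection and not the family.

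**Figure D1:**
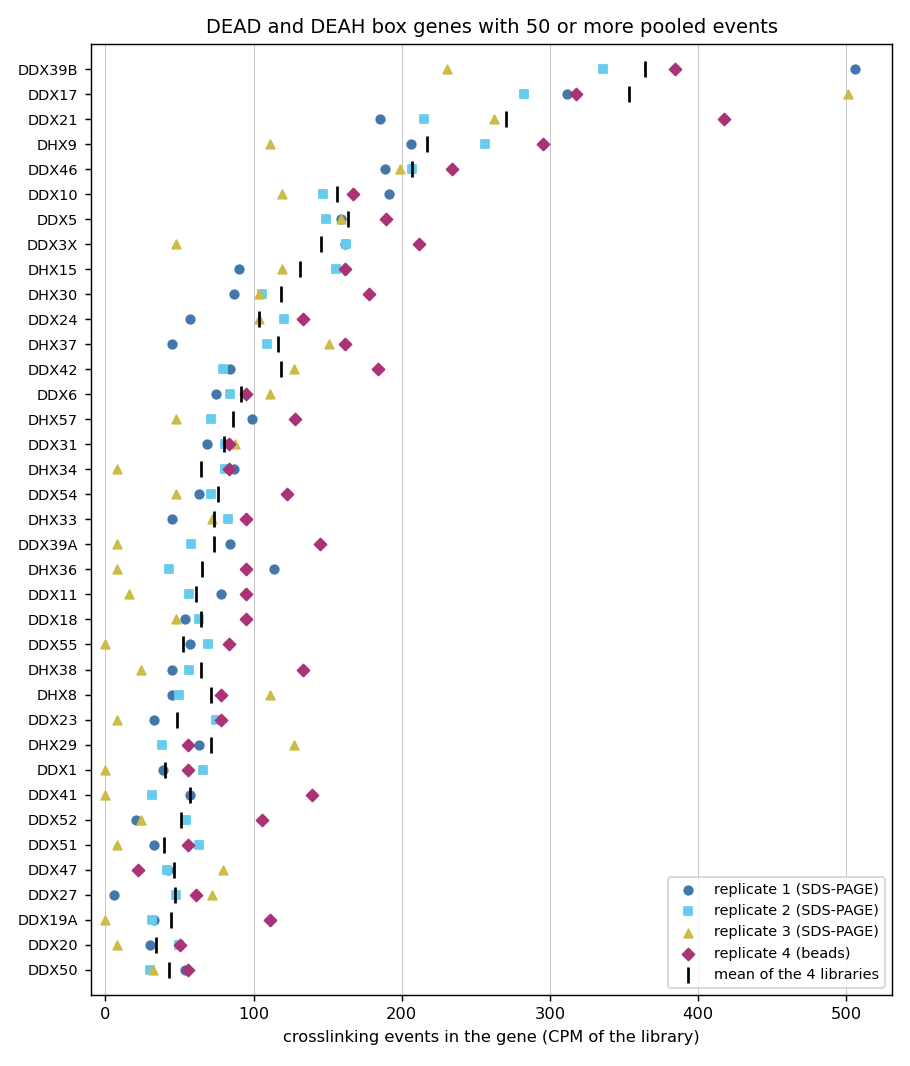
Events of the 37 DEAD and DEAH box genes with at least 50 pooled events, in CPM of each library, with 1 marker per library and a black bar for the mean. DDX39B and DDX17 lead with means of 364 and 353 CPM, and replicate 3 is the highest library for DDX17 and the lowest for DDX39B.

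DDX39B led the family. It encodes a helicase needed for spliceosome assembly and for mRNA export. It had 169, 203, 29 and 69 events in replicates 1 to 4, or 506, 336, 231 and 384 CPM (364 ± 114, SD, n = 4). DDX17, a cofactor of splicing and microRNA processing, had 104, 171, 63 and 57 events, or 311, 283, 501 and 317 CPM (353 ± 99.9). Replicate 3 stood above the other 3 libraries in DDX17, where 14 of its cDNAs fell on the summit of the exon 13 cluster, and below them in DDX39B. With all libraries the 2 means differed by less than the SD of either. Without replicate 3 they were 409 ± 87.7 CPM for DDX39B and 304 ± 18.5 for DDX17 (SD), further apart than either SD.

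DDX21, a nucleolar helicase of ribosomal RNA synthesis and processing, had 62, 130, 33 and 75 events, or 186, 215, 263 and 418 CPM (270 ± 103). The beads library was the highest of the 4. DHX9, a helicase that resolves double-stranded RNA and R-loops, had 69, 155, 14 and 53 events (217 ± 79.4 CPM). DDX46, which acts with the U2 snRNP in early spliceosome assembly, had 63, 125, 25 and 42 events (207 ± 19.3 CPM), the narrowest spread of these 5 genes. Next to the minimum of 200, DDX46 with 255 lay above it, and DDX10 with 198, DDX5 with 197 and DDX3X with 196 lay just below.

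By role, the 14 splicing helicases held 2088 events, with a median of 83 per gene, and 3 of them reached 200 (DDX39B, DDX17 and DDX46). The 16 helicases of ribosome biogenesis held 1524 events, with a median of 77.5, and 1 reached 200 (DDX21). The 11 members of export, translation and mRNA decay held 1077 events, with a median of 82, and 1 reached 200 (DHX9). In CPM these lists came to 1733 ± 289, 1275 ± 347 and 840 ± 278 (SD, n = 4). The mitochondrial pair was split, with 138 events in DHX30, which serves mitochondrial ribosome assembly, and 1 in DDX28. The 4 members outside these lists (DDX11, DDX20, DDX59 and DHX32) held 190.

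Few events fell on helicases of innate immunity and of the germline. DHX58, a regulator of the antiviral RNA sensor RIG-I, had no event in any library, and DDX60 and DDX60L, of the same role list, had 6 and 4. DDX43 and DDX53, known from testis and tumours, had none, and DDX4, the germ cell helicase Vasa, had 2. No event in the pooled libraries allows a level of up to 2.41 CPM, which covers counting error only. DDX25, a testis helicase, and DDX28 had 1 event each, which came from replicate 2 and replicate 4. RNA levels were not measured, so whether these transcripts were present was not tested.

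Helicases of the same superfamily under other names were counted in the same way. Of 18 listed, 5 had at least 200 events, a minimum that 3.51% of all protein-coding genes reached. These were the translation initiation factors EIF4A2 with 279 and EIF4A1 with 238, and ASCC3 with 224. The decay factor UPF1 with 221 and the spliceosomal SNRNP200 with 204 followed. In this order, coding sequence held 7.53%, 18.9%, 17.9%, 34.4% and 91.2% of their events. Introns held 79.5% of those of ASCC3. The antiviral sensors RIGI and IFIH1 had 16 and 2. The median over the 18 was 143.5. Among the 12 with at least 50 events, the median was 14.8 coding events per kb of coding sequence. Of these, 8 lay above the median of all protein-coding genes with at least 50 events.

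The family's events lay in coding sequence more often than those of other genes. The share was 39.0%, 52.1%, 48.7% and 60.2% in replicates 1 to 4, with a mean of 49.97% ± 8.77 (SD, n = 4). For all other protein-coding genes it was 19.02%, 30.7%, 23.6% and 41.3% (28.7% ± 9.71). The 4 libraries ranked in the same order in both, and the difference within a library was 21.3 ± 2.72 percentage points. Introns held 22.4% ± 7.30 of member events and 54.5% ± 11.8 of those of other genes, a difference of -32.1 ± 5.66 points. On canonical transcripts alone the intron shares were 37.1% ± 10.6 and 60.4% ± 11.7, a difference of -23.3 ± 2.92. With UTRs placed before coding sequence, the coding shares were 33.3% ± 5.95 and 19.7% ± 6.50, a difference of 13.6 ± 5.34. The 3′ UTRs held 13.8% ± 1.34 of member events, against 10.3% ± 1.83 in other genes, and the 5′ UTRs 2.28% ± 0.393 against 3.22% ± 0.749. Exons of non-coding transcripts of the same genes held 11.5% ± 3.42, against 3.32% ± 0.217 in other genes. Most of these member events came from 2 genes, with 263 in DDX39B and 138 in DDX17 of 602 pooled, so this share does not describe the family at large. All 4 libraries showed each of these directions. The members have shorter introns: over genes with at least 50 events, the summed intron length had a median of 23242 nt in members and 70410 nt in all protein-coding genes, while the coding length was 2429 and 2178 nt. The part of intron length in the shares was not tested.

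**Figure D2:**
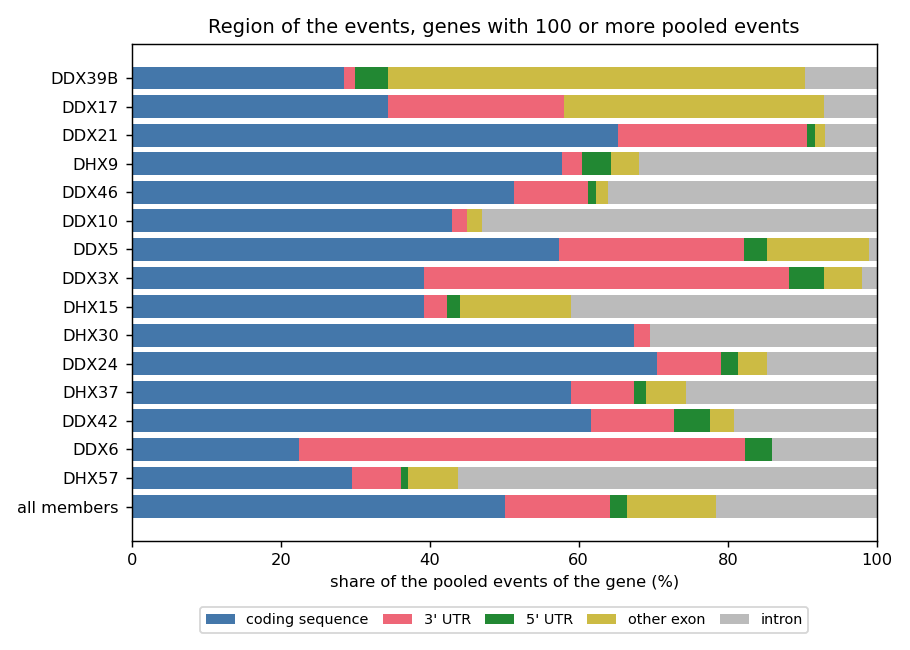
Region of the pooled events in the 15 genes with at least 100 events and in all 53 members together, as a share of the events of the gene in percent. Coding sequence holds 70.5% of DDX24 and 22.4% of DDX6, the 3′ UTR holds 59.8% of DDX6, and other exons hold most of DDX39B.

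Per length, the coding sequences of the family were crosslinked more densely than those of most genes. Among the 37 members with at least 50 pooled events, the median density was 20.4 events per kb of coding sequence, against 9.17 for the 5169 protein-coding genes with at least 50. Of the 37, 35 lay above the median of all these genes, and 8 lay in the top 10% by density, a share that is fixed by definition. The 2 below the median were DHX57 and DDX19A. Densities in 3′ UTRs were 7.91 events per kb in the median member and 2.85 in the median gene. In introns they were close, at 0.781 and 0.707 events per kb. Without replicate 3 the median coding density of members was again 20.4. DDX18, the member at this median, had no coding event in replicate 3. The median was 18.6 without replicate 1, 16.03 without replicate 2 and 16.4 without replicate 4. Counting each position once gave 13.2. The median of all genes in these settings is not given here, so these values cannot be set against 9.17.

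**Figure D3:**
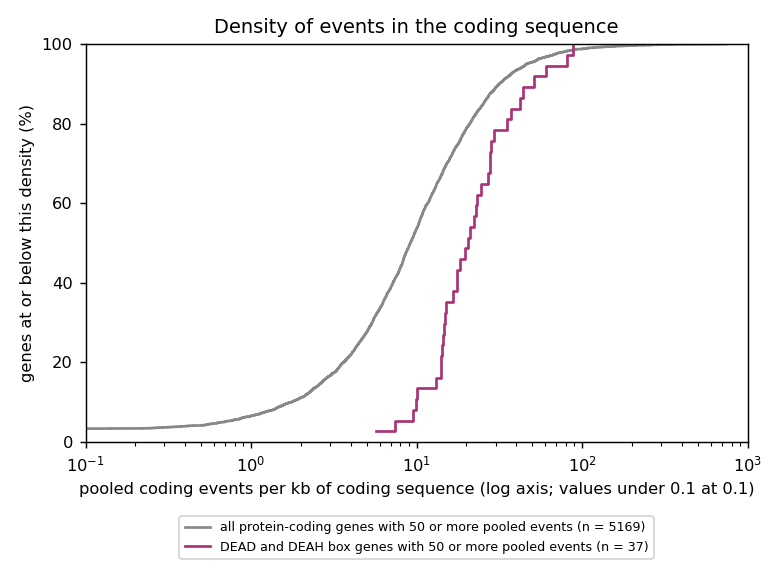
Cumulative share of genes by pooled coding events per kb of coding sequence, on a log axis, for all protein-coding genes and for the DEAD and DEAH box genes with at least 50 pooled events. The curve of the 37 members lies to the right of that of the 5169 genes over most of its length, with medians of 20.4 and 9.17 events per kb.

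DDX39B had the highest coding density, 87.6 events per kb, from 44, 67, 4 and 19 coding events in replicates 1 to 4. DDX21 followed with 80.9 events per kb, from 41, 79, 30 and 46. DDX17 and its close paralogue DDX5 had 60.8 and 51.5, and DDX5, the lowest of these 4, lay above 95.6% of the protein-coding genes compared. DHX9 had 44.1 events per kb and DDX46 42.1. DDX39A, which is nearly identical to DDX39B in its protein and also acts in mRNA export, had 37.3, and DDX24, of ribosome biogenesis, 35.3. DDX3X, a translation initiation helicase, had 28.1 and DDX10, of small ribosomal subunit assembly, 28.0. DDX3X had none of its 77 coding events in replicate 3.

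The DDX and DHX branches overlapped in density. The 26 DDX genes with at least 50 events ranged from 5.71 to 87.6 coding events per kb with a median of 22.6. The 11 DHX genes ranged from 7.42 to 44.1 with a median of 17.6. By role, the medians were 27.7 events per kb for splicing, 20.7 for ribosome biogenesis and 14.9 for export, translation and decay, and 11 of 11, 14 of 14 and 7 of 9 members with at least 50 events lay above the median of all genes.

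DDX39B, DDX17 and DDX5 also had dense events in introns of their canonical transcripts. Intron 6 of DDX39B (GRCh38 chr6:31532912-31535366) held 213 events on 125 positions, more than any other exon or intron of the family. They came as 87 of 169 gene events in replicate 1, 93 of 203 in replicate 2, 15 of 29 in replicate 3 and 18 of 69 in replicate 4, a share of 43.8% ± 12.1 (SD, n = 4). The beads library had the lowest share. Intron 11 of DDX17 (chr22:38488116-38492055) held 143 events on 90 positions, with 38, 69, 26 and 10 per library (33.9% ± 11.1 of the gene). The beads library was again the lowest of the 4.

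Intron 11 of DDX5 (chr17:64500774-64502009), at the same place in the exon order as that of DDX17, held 63 events on 37 positions, with 25, 34, 0 and 4 per library. None of the 20 DDX5 events of replicate 3 lay there, which allows a share of up to 15.0% by counting error. These densities were 86.8, 36.3 and 51.0 events per kb, whereas the other 869 introns of canonical member transcripts had 0.703 per kb together and canonical exons 15.5. The 3 introns were chosen for their density, after the values were seen, and are not the only dense introns. In DDX39B, introns 5, 1 and 7 held 35, 33 and 31 events, or 34.5, 25.7 and 22.6 per kb. Most events of the first 2 lay in snoRNAs, with 28 in SNORD117 in intron 5 and 21 in SNORD84 in intron 1. GENCODE covers intron 6 of DDX39B and intron 11 of DDX17 and of DDX5 with exons of other transcripts of the same genes. All events of these 3 introns therefore counted as exonic in the region shares. DDX10 differed from these genes, since the 66 events in its intron 13 were spread over 114983 nt, or 0.574 events per kb.

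**Figure D4:**
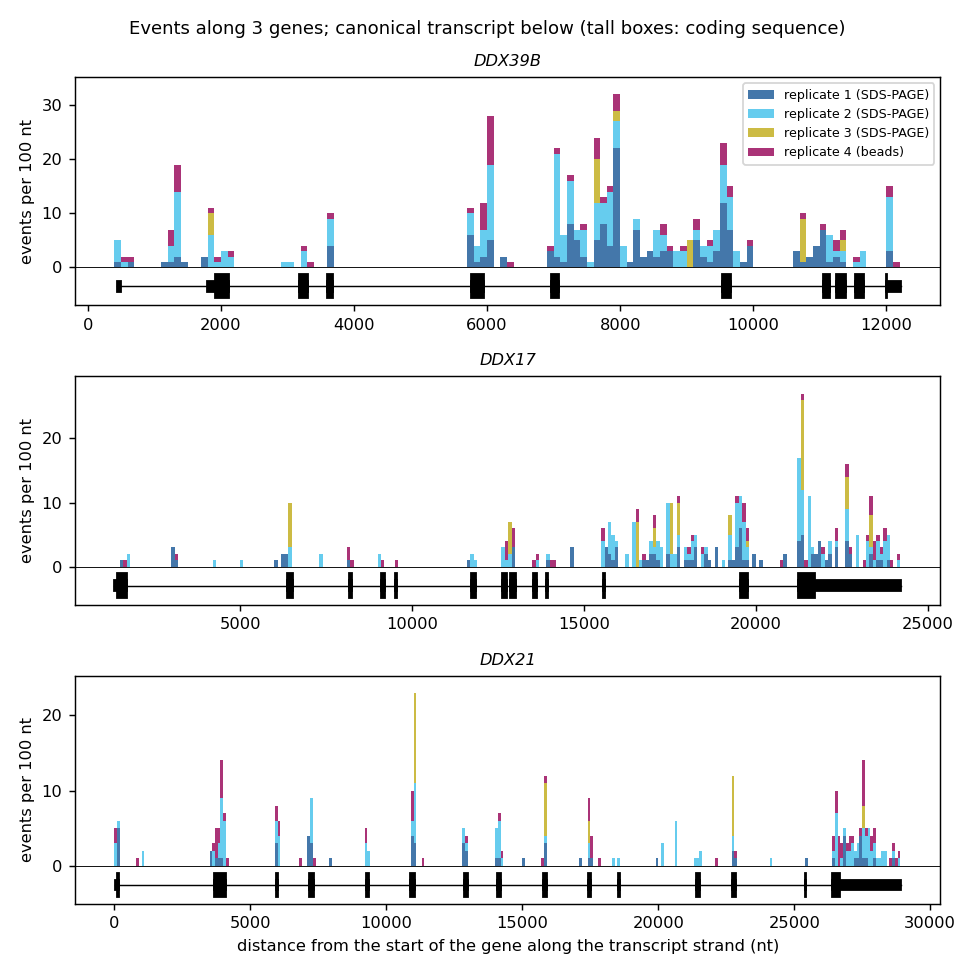
Events per 100 nt along DDX39B, DDX17 and DDX21, stacked by library, against the distance in nt from the start of the gene, with the canonical transcript drawn below (tall boxes for coding sequence). Intron 6 of DDX39B and intron 11 of DDX17 are covered over much of their length by 213 and 143 events, while DDX21 events lie mostly on exons.

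DDX39B is also the host of snoRNAs. SNORD117 in intron 5 held 28 events, with 5, 14, 0 and 9 in replicates 1 to 4, and SNORD84 in intron 1 held 21, with 2, 12, 0 and 7. None came from replicate 3. Over their 76 and 78 nt these were 368 and 269 events per kb. Reads from a snoRNA and from the host intron cannot be told apart here. The whole of DDX39B lies inside a readthrough gene with ATP6V1G2 on the same strand, so its events were also counted for that gene.

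The members with the highest shares in 3′ UTRs and in introns, among those with at least 100 events, were taken next. DDX6, a helicase of mRNA decay and translational repression, had 64 of 107 events (59.8%) in its 3′ UTR, with 12, 31, 13 and 8 events in the last exon. DDX3X had 49.0% there, DDX21 25.3%, DDX5 24.9% and DDX17 23.5%. In DDX3X, 77 of the 96 events counted as 3′ UTR lay in the last exon, or 39.3% of the gene's events. In DDX5, 33 of the 49 events counted as 3′ UTR lay in intron 11, in 3′ UTR of other transcripts, and 15 in the last exon. In DDX17, 6 of 93 lay in intron 11 and 87 in the last exon. DHX57, a little-studied member, had 56.2% of its 105 events in introns. DDX10 followed with 53.0%, DHX15, which disassembles spliceosomes, with 41.1%, DDX46 with 36.1% and DHX9 with 32.0%. DDX5 had 1.02% in introns that no other transcript covers.

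The pooled list held 62 clusters in 21 members, or 39.6%, against 11.3% of protein-coding genes. DDX21 had 10 clusters with 49.7% of its events and DDX39B 9 with 33.2%, followed by DDX46 with 6 and DDX17, DHX9 and DDX5 with 5 each. The summit lay in coding sequence in 44, in a 3′ UTR in 8, in a 5′ UTR in 2, in other exons in 6 and in introns in 2. A GANGA motif lay in the 36-nt window of 17 of the 62 summits, or 27.4%, 12 of them in coding sequence. Among all coding positions of the members the share was 21.2%, and the share over all pooled clusters is not given here. Since the clusters were called on the pooled libraries, their support by library was counted. All 4 libraries contributed to 13 clusters, and 1 library gave at least 50% of the cDNAs in 45. This was replicate 2 in 25 and replicate 3 in 11, while 39 clusters had no cDNA from replicate 3. In the lists called on each library alone, members had 4, 21, 2 and 1 clusters in replicates 1 to 4.

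Of the 8 largest clusters, 5 held no cDNA from replicate 3. The DDX17 exon 13 cluster came from 9, 20, 14 and 1 cDNAs, and all 14 of replicate 3 lay on 1 position. In the DDX21 exon 6 cluster, with 7, 10, 12 and 4, the summit held 14 cDNAs, 12 of them from replicate 3. The DHX30 cluster rested on replicate 3, which gave 12 of 20 cDNAs at 1 position. The clusters in exon 12 of DDX17 and exon 12 of DDX5, the penultimate exons of both genes, had 9, 15, 0 and 1 and 5, 14, 0 and 5 cDNAs. The DDX39B exon 7 cluster had 17, 9, 0 and 4.

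GANGA motifs lay near member coding events more often than near member coding positions. The study found GAAGA in its PR100 crosslinking data, with the window used here. A gain near the motif in a part of these events is therefore a description and not independent support for it. A motif was counted when it lay whole, on the transcript strand, in the stretch that starts 5 nt before the position and ends 30 nt after it. This held for 29.8%, 27.9%, 29.4% and 31.1% of coding events in replicates 1 to 4, with a mean of 29.5% ± 1.32 (SD, n = 4), and for 21.2% of all coding positions of the members. The difference of 8.38 ± 1.32 percentage points was positive in all 4 libraries, from 6.72 to 9.91. With each gene's positions weighted by its own events, an alternative added after the data were seen, it was 7.33 ± 1.27. In other protein-coding genes the motif was near 16.5% of coding positions and 25.5% ± 0.878 of coding events, a difference of 9.03 ± 0.878. The 2 differences were -0.66 ± 1.46 points apart, less than their spread over the libraries, so the gain near GANGA was not distinguishable between the family and other genes. Weighted by gene, the gain in other genes was 5.93 ± 0.808 and the difference turned to 1.40 ± 1.59 points, again within the spread. The members' coding sequences held more of the motif.

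By gene, the share of coding events near GANGA was above the share of coding positions in 14 of the 20 members with at least 50 coding events. The same count over other protein-coding genes is not given here, so this count cannot set the family apart. In DDX10 it was 55.3% of events against 27.6% of positions, in DDX46 43.5% against 32.7%, in DDX5 39.8% against 23.6% and in DDX39B 37.3% against 19.4%. DDX3X had 36.4% against 20.2%, DDX21 33.2% against 25.04%, DDX17 28.7% against 18.1% and DDX39A 26.9% against 21.7%. In DHX9 (21.4% and 20.1%) and DHX30 (17.2% and 16.9%) the shares were close. DDX24 (21.98% and 25.2%) and DHX15 (9.09% and 12.4%) had the lower share at events. Over the 37 members with at least 50 events, the share of coding positions near GANGA and the coding density had a Spearman's rho of 0.04. The points share the libraries, and the value is a description.

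Whether events favoured the shared helicase core or the arms was measured in the coding sequence of the canonical transcript. The core was taken from motif I, the ATP-binding loop, to motif VI, the arginine finger motif, both found by pattern in the translated sequence. The arms are all coding sequence outside this stretch, and folded domains within them were not separated, nor were DDX from DHX genes. Both patterns were found in 40 members. The 13 without them include DDX39B and DDX39A. Where a pattern matched more than once, the last motif I before the first motif VI was used, a choice made after the matches were seen. Pooled densities were 22.9 events per kb before the core, 19.4 in it and 23.4 after it. Outside over inside, the ratio was 1.13, 1.23, 0.738 and 1.38 in replicates 1 to 4, with a mean of 1.12 ± 0.275 (SD, n = 4). This mean lay within 1 SD of equal density. Without replicate 3 the ratio was 1.25 ± 0.126, and all 3 remaining libraries lay above 1. Without the positions of at least 5 events of replicate 3, an alternative added after the data were seen, it was 1.097 ± 0.320.

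The arms before the core held GANGA near 29.5% of coding positions, the core near 17.9% and the arms after it near 21.7%. Acidic residues made up 16.1%, 11.9% and 12.4% of these stretches, and basic residues 17.1%, 12.6% and 14.5%. Away from the motif, the arms together had 20.7 events per kb and the core 18.4. Near the motif the values were 30.2 and 24.2. These pooled differences did not hold in every library. Away from the motif, arms and core had 3.64 and 3.68 events per kb in replicate 1 and 1.35 and 1.71 in replicate 3. Near the motif, replicate 3 had 2.07 and 3.72. The part of the motif in the ratio was not tested further. Of the 18 members with both motifs and at least 50 coding events, 13 had the higher density outside the core. DDX42, a splicing helicase, had 40.5 events per kb before the core and 18.1 in it. DDX10 had 39.97 after the core, where 23.1% of residues are acidic, and 25.9 in it. DDX5 went the other way, with 70.7 events per kb in the core, 38.9 before and 46.3 after. DDX17 had 26.5 before the core, 57.2 in it and 102 after, where the cluster with 14 cDNAs of replicate 3 lies.

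**Figure D5:**
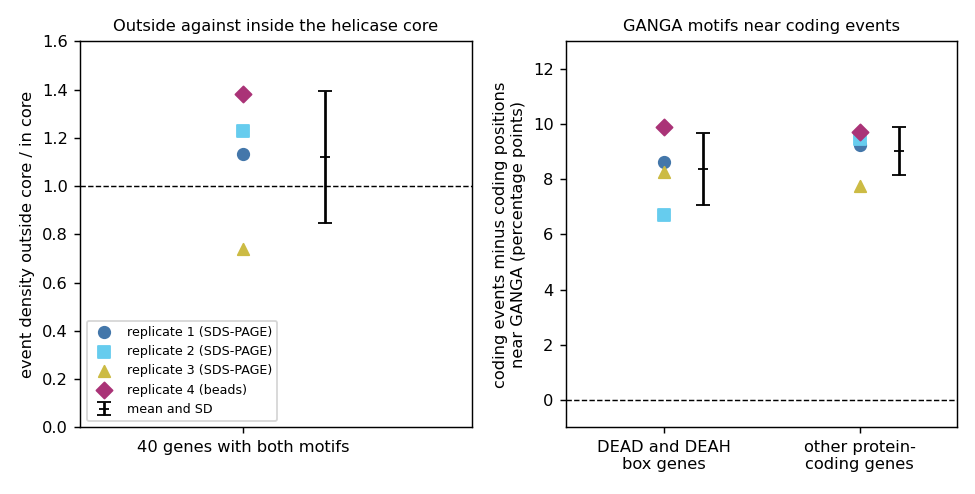
Left, coding event density outside the helicase core divided by that inside it, in each library, over the 40 genes with both motifs, where 1 (dashed) is equal density. Right, share of coding events minus share of coding positions near GANGA, in percentage points, for the family and other protein-coding genes. Points are libraries and bars the mean with SD (n = 4). Replicate 3 is the only library below 1 on the left (0.738), and all points on the right lie above 0.

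The purification was compared over all 9072 protein-coding genes with at least 20 pooled events. With 1 beads library, library and purification cannot be told apart. By edgeR's quasi-likelihood test with Benjamini-Hochberg adjustment, 0 of 9072 genes were called, or 0%, and thus no member. At an unadjusted p under 0.05 there were 135 genes, and DESeq2 called 0, with 73 at an unadjusted p under 0.05. Of the 44 members tested, 40 had a higher fitted level in the beads library, against 49.99% of all genes. The median log2 difference was 0.55 in members and 0.00 over all genes, where TMM scaling keeps it near that value. The members share the 1 beads library, so 40 of 44 does not count independent results. With library totals in place of TMM the medians were 0.42 and -0.13. The median of members was 0.36 without replicate 3 and 0.74 without replicate 2. The coding share of other protein-coding genes was also highest in the beads library, at 41.3%. It was 19.02%, 30.7% and 23.6% in replicates 1 to 3. Whether genes rich in coding events outside the family shifted in the same way was not tested. The member with the smallest p was DDX41, a splicing helicase, with 19, 19, 0 and 25 events, a log2 difference of 2.03 ± 0.99 (SE) and an adjusted p of 0.9997. Without replicate 3, edgeR called 6 genes, none of them a member, and its adjusted p for DDX41 was 0.497.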

How the data were processed

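Per the labels and the methods of the study, the authors sequenced iiCLIP cDNA of HEK293T cells with PR100-FLAG, collapsed PCR duplicates by random barcodes, mapped reads with STAR to GRCh38 with Gencode 27 and kept unique reads. The STAR version is not given in the sources used here. The deposited values are counts of unique cDNAs per crosslinked position and strand, without normalisation. Clusters were called by the authors on each library and on the pool, and their values are counts of cDNAs. Near-identical paralogues (DDX19A and DDX19B, DDX39A and DDX39B) keep only reads that map to 1 of them. Summing the 4 libraries gave the deposited pooled counts exactly.

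Positions were assigned to GENCODE 44, a later annotation than that of the authors, with Python 3.11.15. An event was assigned to each gene overlapping it on the same strand. Within a gene, over all its transcripts, coding sequence took precedence over 3′ UTR, then 5′ UTR, other exon and intron. CPM used all events of a library. Densities are pooled events per kb of the union of a region. Values are means and SDs over 4 libraries, and no p-value was computed over members. Depth ranged from 125694 to 604816 events, and limits from a count of 0 (3 counts) cover counting error only. Library differences were fitted with edgeR 4.0.16 in R 4.3.3 on counts of genes with at least 20 events (TMM, quasi-likelihood, threshold 0.05), with DESeq2 1.42.0 as an alternative. On data simulated for beads against SDS-PAGE over 9072 genes, 2 of 200 genes changed 4-fold were called and no call was made when nothing changed.

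Named genes were members with at least 200 events, the 10 with the highest coding density among those with at least 50 coding events, the 5 with the highest intron share and the 5 with the highest 3′ UTR share among those with at least 100 events, the 5 with the fewest events and those with a cluster of at least 20 cDNAs. Other names complete a list or were chosen after their values were seen. Members, role lists and alternatives were chosen with earlier results of these data known, and 3 alternatives were added after the data were seen.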

Additional observations from a re-analysis of the deposited data

Results flagged for a closer look

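In DDX17, replicate 3 lay far from the other libraries at 501 CPM, with a gap of 0.842 of the group's range, above the critical value of Dixon's test for 4 samples. The same test singled out DDX25 and DDX28, each with a gap of 1 of the range, because 1 library held the only event. It was applied to 24 sets of 4 values and marked 3, and chance marks about 1 in 20.

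Outside the main measurement, 201 events lay on the strand opposite the helicase genes, which is 3.996% of the sense events. DHX32 had 31 opposite its 38 sense events, where BCCIP lies on the other strand, and DHX38 had 16, opposite TXNL4B and PMFBP1. DDX19B had 13 opposite 18 sense events, with AARS1 on the other strand. DHX37 had 11 with no annotated gene there.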

How the results depend on the processing

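No paired analysis was possible because the 4 libraries form 1 group and the beads and SDS-PAGE libraries share no replicate number. Of 68 alternatives to the results other than single genes, 53 were counted as the same and 15 as moved. The same does not mean unchanged. The median coding density of members, 20.4 in the main setting, was counted as the same at 13.2 with each position counted once. The 5 members with at least 200 events became 15 at a minimum of 100, 1 at a minimum of 400 and 3 with each position counted once, and lay between 2 and 5 when 1 library was left out, with 2 without replicate 2. With UTRs placed before coding sequence, the coding share of member events was 33.3%, and on canonical transcripts the intron share was 37.1%. Both differences from other genes kept their direction in all 4 libraries. The gain near GAAGA alone was 6.49 percentage points. Clusters with at least 20 cDNAs numbered 8, and the lists of single libraries held 4, 21, 2 and 1. The 0 genes called between beads and SDS-PAGE became 1 with no filter on low counts, and leaving out 1 library gave 0 to 8, with 8 without replicate 2 and 6 without replicate 3. Of 114 alternatives for the CPM of 19 single genes, 1 was counted as moved: DDX39B had 0 once events shared with an overlapping gene were left out, by construction. Among those counted as the same, DDX39A went from 73.6 to 49.9 CPM without replicate 4. The cause of the other changes was not tested. Member events numbered between 419 and 2357 per library, which limits what single libraries show for a gene.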
